A study of Mus musculus with 81 samples.

Results

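Voltage-gated calcium and sodium channel genes were described in 3 excitatory neuron populations of the mouse hippocampus. The members were the protein-coding genes whose symbols name an alpha1 (Cacna1), alpha2delta (Cacna2d) or beta (Cacnb) subunit of the calcium channels, or an alpha or beta subunit (Scn) of the sodium channels. The symbol rule, which uses no measured value, found 32 genes among 57010 gene IDs. It was set with earlier results of these data known. They comprised 10 calcium channel alpha1 subunits, 4 alpha2delta subunits, 4 calcium channel beta subunits, 10 sodium channel alpha subunits and 4 sodium channel beta subunits.

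Pyramidal neurons (PNs) of hippocampal fields CA1 and CA3 and granule cells of the dentate gyrus (DGCs) were cut from Nissl-stained sections by laser capture microdissection (LCM), and their total RNA was sequenced. The mice were trisomic Ts65Dn (Ts) males, a Down syndrome model with extra copies of genes from mouse chromosome 16 and from the centromeric end of chromosome 17, and their disomic (2N) counterparts. They came from Ts65Dn mothers and C57Bl/6J Eicher × C3H/HeSnJ F1 fathers. The study's methods give an age of about 6 months for the mice on the normal choline diet. Dams and pups received a diet with 1.1 g/kg choline chloride (ChN) or a supplemented diet with 5.0 g/kg (ChP) from conception to weaning, and all offspring ate the control diet thereafter. The 81 libraries came from 28 mice, 12 on ChN and 16 on ChP. CA1 PNs had 6 libraries in 2N ChN, 5 in Ts ChN, 7 in 2N ChP and 9 in Ts ChP mice. CA3 PNs had 6, 6, 7 and 7 libraries in the same order, and DGCs had 6, 6, 7 and 9. Libraries of different populations came from the same mice, and each library pooled groups of densely packed neurons of 1 brain. Expected counts per library summed to between 625249 and 4744036 in ChN and between 358355 and 2559173 in ChP mice.

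Voltage-gated sodium channels open on depolarization and carry the upstroke of the action potential. Their alpha subunit forms the pore, and beta subunits alter its gating and its placement in the membrane. Voltage-gated calcium channels turn depolarization into calcium entry: Cav1 channels act on dendrites and on signalling to the nucleus, Cav2 channels trigger transmitter release, and Cav3 (T-type) channels open near rest and favour burst firing. The beta and alpha2delta subunits carry the calcium channel pore to the membrane and shape its currents.

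Libraries that stood apart from their labels are described before the comparisons. In 2N ChN mice, defining markers matched the labels in CA3 PNs and DGCs. The granule cell marker list (Prox1, C1ql2 and others) had a mean log2(CPM + 1) of 7.85 ± 0.17 in DGCs (SD, n = 6) against 1.83 ± 0.14 in CA3 PNs. The CA3 list had one of 5.45 ± 0.22 in CA3 PNs against 2.50 ± 0.41 in DGCs. The CA3 library of mouse 15-140 (Ts ChP) had a granule cell marker level of 4.39, against 1.49 to 2.33 in all other CA3 libraries. Its CA3 marker level was 5.32, and it was kept in the comparisons. CPM here is a count scaled to a common library size by the trimmed mean of M values (TMM). Of the 27 CA1 libraries, 10 were rich in markers of the neighbouring field CA2 (Amigo2, Rgs14, Pcp4 and others), with a mean log2(CPM + 1) over 7 CA2 markers of 5.71 to 7.91 against 1.08 to 3.04 in the other 17. Their CA1 markers were lower, at 2.08 to 6.12 against 6.25 to 6.81. Their CA3 markers were higher, at 2.73 to 5.13 against 0.66 to 2.58. They were 5 Ts and 5 2N libraries, and the CA1 comparisons were also made without them, a choice made after the data were seen. The CA3 library of mouse 15-145, the deepest of all, carried a Ts label while the CA1 and DG libraries of the same mouse were labelled 2N. It was grouped as 2N, and results that move without it or under its own label are given.

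Of the 32 genes, 23 passed the filter on low counts in all 14 models that were fitted, 3 passed in some (Scn9a, Cacna2d4 and Scn7a) and 6 in none. Scn10a and Scn11a, sodium channels of sensory neurons, had 0 counts in all 81 libraries. The retinal Cacna1f had 2 counts in all, and the skeletal muscle genes Cacna1s and Scn4a had 12 and 6. A count of 0 allows a level of up to 3 counts, which was 0.632 CPM in the deepest and 8.37 CPM in the shallowest library, and this floor covers counting error only. The summed level of the 32 genes was 6444 ± 328 CPM in CA1 PNs (SD, n = 27), 6983 ± 212 CPM in CA3 PNs (n = 26) and 5560 ± 221 CPM in DGCs (n = 28).

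**Figure D1:**
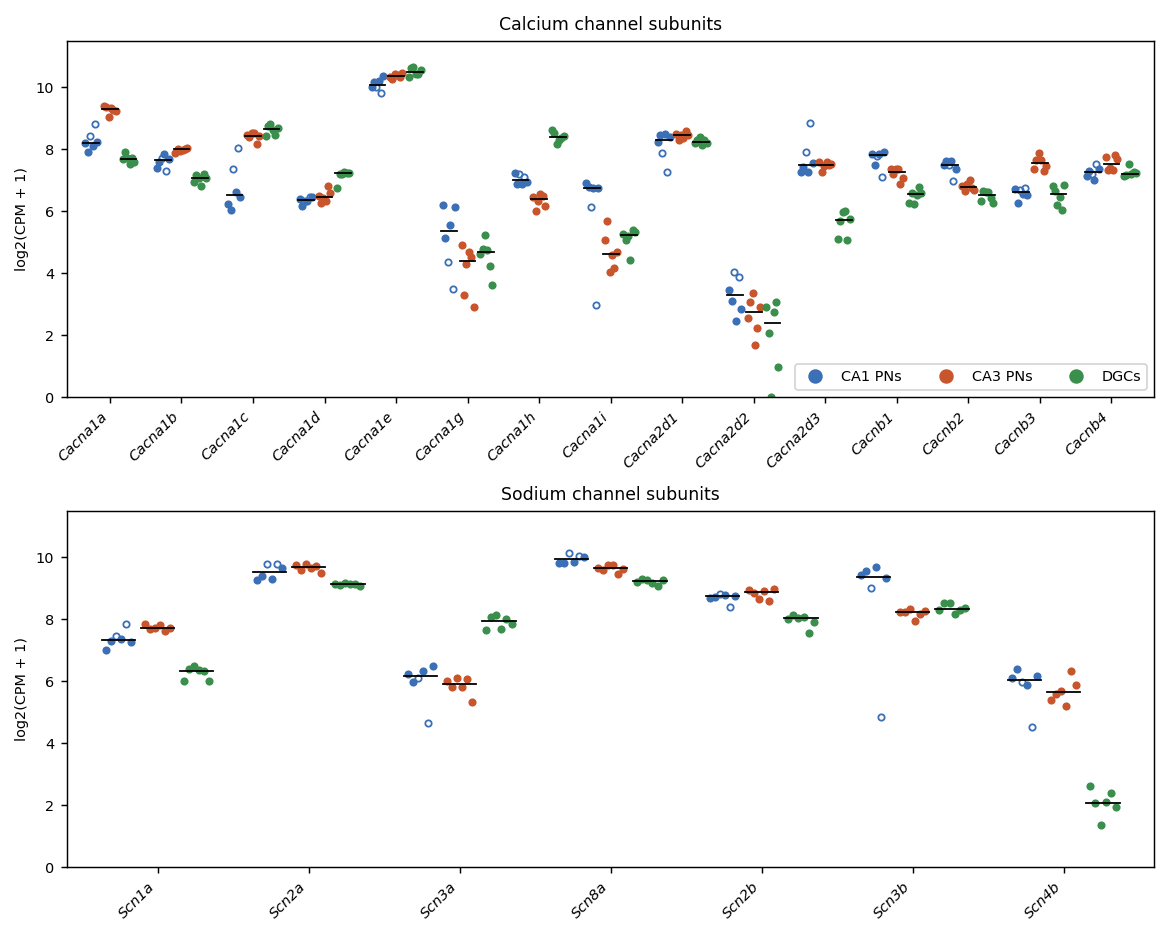
Level of channel genes that passed the filter in every model, in 2N ChN mice by neuron population, as log2(CPM + 1) with 1 point per library (6 per population) and a bar at the median. Scn4b lay between 1.57 and 5.17 CPM in DGCs and above 21 CPM in each of these CA1 and CA3 libraries, and hollow points mark the CA1 libraries rich in CA2 markers.

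Populations were compared in 2N ChN mice to ask which channel genes differ between hippocampal neuron types without trisomy or supplementation. At an adjusted p under 0.05 (edgeR quasi-likelihood test over all genes), 12 of 24 tested channel genes differed between CA1 and CA3 PNs, where 23.3% of all tested genes passed, and 5 of the 12 were higher in CA1. Between CA1 PNs and DGCs 18 of 24 differed, 13 higher in CA1, against 34.3% of all genes. Between CA3 PNs and DGCs 16 of 24 differed, 13 higher in CA3, against 43.7%. Without the CA1 libraries rich in CA2 markers the counts were 17 of 24 for CA1 against CA3 (28.0% of all genes in that fit) and 19 of 24 for CA1 against DG (32.3%). In this kind of bulk sample, fewer cells of a type and less RNA per cell cannot be told apart.

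The same comparisons were made in Ts ChN, 2N ChP and Ts ChP mice, which share no mouse with the 2N ChN group or with each other. Called in the same direction in all 4 groups were 9 of 24 genes for CA1 against CA3 (14.7% of all genes), 18 of 24 for CA1 against DG (22.3%) and 14 of 24 for CA3 against DG (30.3%). Without the CA2-rich libraries these counts were 11 (17.9% of all genes), 17 (20.4%) and 14 (33.5%). Among them, Cacna1h, Cacnb1 and Cacnb2 were higher and Cacna1a, Cacna1b, Cacna1c, Cacna1e and Cacnb3 lower in CA1 than in CA3 PNs in all 4 groups. In DGCs, Cacna1d, Cacna1h and Scn3a were higher than in both pyramidal populations in all 4 groups.

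Promoters of 5 genes are shown first, chosen after their values were seen, as the 250 bases before the start of the canonical Gencode transcript on mouse build GRCm39, written 5′ to 3′ on the gene's strand. Capitals mark the GC box (GGGCGG or its reverse complement CCGCCC) and the E box (CACGTG), searched on both strands along with a TATA box (TATAAA) and a cyclic AMP response element (TGACGTCA). Of 21770 promoters of the same length, 36.3% held a GC box, 6.26% the E box, 11.9% the TATA box and 1.70% the response element. Among the 32 channel genes 16 held a GC box, 3 an E box, 1 a TATA box (Scn2a) and 0 the response element, and their median GC content was 55.8% against 53.2% for all promoters. A match is a run of letters and not evidence of binding. Scn4b (chr9:45049345-45049594, plus strand) is shown as the gene nearly missing from DGCs. Scn3a (chr2:65397972-65398221, minus strand) and Cacna1h (chr17:25652765-25653014, minus strand) are shown as genes highest there. Scn3b (chr9:40180241-40180490, plus strand) is the channel gene with the largest SD of CPM within CA1, and Cacna1g (chr11:94365231-94365480, minus strand) the gene that differed by genotype.
Scn4b: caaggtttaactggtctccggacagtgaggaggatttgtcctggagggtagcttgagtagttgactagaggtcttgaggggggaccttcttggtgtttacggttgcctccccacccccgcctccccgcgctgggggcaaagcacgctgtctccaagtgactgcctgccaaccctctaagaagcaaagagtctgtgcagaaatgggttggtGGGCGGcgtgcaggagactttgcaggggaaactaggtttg
Scn3a: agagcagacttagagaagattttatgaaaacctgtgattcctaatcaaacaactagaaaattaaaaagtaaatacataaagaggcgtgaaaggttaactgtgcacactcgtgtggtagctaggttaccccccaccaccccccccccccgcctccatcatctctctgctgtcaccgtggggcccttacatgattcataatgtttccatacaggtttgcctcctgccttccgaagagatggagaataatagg
Cacna1h: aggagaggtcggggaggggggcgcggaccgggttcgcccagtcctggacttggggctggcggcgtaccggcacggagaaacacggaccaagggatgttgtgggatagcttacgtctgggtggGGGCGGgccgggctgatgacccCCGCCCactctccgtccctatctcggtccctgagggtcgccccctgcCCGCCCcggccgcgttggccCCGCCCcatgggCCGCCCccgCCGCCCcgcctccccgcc
Scn3b: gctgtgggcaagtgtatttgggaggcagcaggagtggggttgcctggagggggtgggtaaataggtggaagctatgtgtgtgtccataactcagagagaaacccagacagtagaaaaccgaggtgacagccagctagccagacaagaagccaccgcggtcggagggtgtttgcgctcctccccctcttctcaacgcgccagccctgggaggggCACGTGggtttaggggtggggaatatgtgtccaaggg
Cacna1g: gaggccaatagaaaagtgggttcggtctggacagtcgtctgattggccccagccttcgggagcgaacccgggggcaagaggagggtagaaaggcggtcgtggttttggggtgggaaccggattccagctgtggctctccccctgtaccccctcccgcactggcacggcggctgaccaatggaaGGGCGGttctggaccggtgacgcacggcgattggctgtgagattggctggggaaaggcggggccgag
The Cacna1h window held 6 GC boxes, those of Cacna1g and Scn4b held 1 each, that of Scn3b held 1 E box, and the Scn3a window held none of the 4 motifs.

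Among the sodium channel pores, Scn8a (Nav1.6) and Scn2a (Nav1.2), the main pores of the axon initial segment, held the largest shares of the family's length-corrected total, as given further on. Scn8a was highest in CA1 PNs at 894.9, 978.4 and 1119 CPM (lowest, median and highest of 6 libraries), followed by 707.5, 795.4 and 865.9 CPM in CA3 PNs and 541.9, 603.7 and 635.1 CPM in DGCs. The 3 ranges did not overlap, and the log2 fold changes (LFC) of CA1 and CA3 PNs over DGCs were 0.70 ± 0.09 (SE, adjusted p = 1.91e-08) and 0.39 ± 0.09 (adjusted p = 0.000242). Scn2a was also higher in both pyramidal populations than in DGCs, by 0.38 ± 0.10 in CA1 (adjusted p = 0.00153) and 0.51 ± 0.10 in CA3 (adjusted p = 3.29e-05).

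Scn1a (Nav1.1), a pore best known from inhibitory interneurons, had 196.6, 210.2 and 229.1 CPM in CA3 PNs, 128.8, 158.9 and 226.8 CPM in CA1 PNs and 62.6, 79.5 and 89.4 CPM in DGCs. Every pyramidal library lay above every DGC library, and the LFC of CA3 over DGCs was 1.45 ± 0.12 (adjusted p = 1.15e-12). The 7 inhibitory neuron markers (Gad1, Gad2, Slc32a1, Sst, Pvalb, Vip and Npy) had a mean log2(CPM + 1) of 4.57 ± 0.43 in CA3, 4.21 ± 0.40 in CA1 and 2.96 ± 0.30 in DG libraries. On this scale the order was like that of Scn1a. Their summed level had medians of 273.7, 226.1 and 227.1 CPM in CA3, CA1 and DG libraries. Gad1 alone had medians of 97.1, 106.4 and 178.0 CPM, highest in the DG, while each of the other markers had its lowest median there. The part of inhibitory neurons in the Scn1a levels was not tested.

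Scn3a (Nav1.3), a pore prominent before birth, went the other way. It had 197.9, 244.3 and 278.4 CPM in DGCs against 24.1, 71.0 and 89.3 CPM in CA1 PNs and 39.2, 59.2 and 68.3 CPM in CA3 PNs. The DGC libraries lay above all others, with LFCs of -1.89 ± 0.18 for CA1 (adjusted p = 1.15e-08) and -2.05 ± 0.18 for CA3 (adjusted p = 1.28e-09). In the other 3 groups the CA3 value lay between -1.86 and -1.79.

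Scn4b, a beta subunit linked to resurgent sodium current, showed the widest gap of all the channel genes. It had 21.8, 64.7 and 83.4 CPM in CA1 PNs, 35.5, 49.1 and 78.9 CPM in CA3 PNs and 1.57, 3.22 and 5.17 CPM in DGCs, the last from 2 to 5 counts per library. No DGC library reached the lowest pyramidal library, and the LFCs over DGCs were 4.17 ± 0.33 in CA1 (adjusted p = 3.19e-11) and 3.91 ± 0.33 in CA3 (adjusted p = 8.06e-11). Both differences were called in each of the other 3 groups, with values from 3.74 to 4.99 in CA1 and from 3.90 to 4.22 in CA3.

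Scn2b, the beta2 subunit, was higher than in DGCs in CA1 (0.71 ± 0.10, adjusted p = 4.77e-07) and in CA3 PNs (0.84 ± 0.10, adjusted p = 9.41e-09).

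Scn3b, the beta3 subunit, depended on which CA1 libraries were used. It had 27.5, 660.7 and 822.5 CPM in CA1, 242.5, 299.0 and 319.6 CPM in CA3 PNs and 288.8, 320.4 and 365.2 CPM in DGCs. The CA1 range spanned those of the other populations. Its lowest values were those of mouse 17-21, at 27.5 CPM, and of mouse 17-154, at 515.0 CPM, in libraries rich in CA2 markers. The LFC of CA1 over CA3 was 0.97 ± 0.42 (adjusted p = 0.119) with these libraries and 1.3 ± 0.09 (adjusted p = 3.68e-22) without them, and over DGCs 0.77 ± 0.42 (adjusted p = 0.18) and 1.12 ± 0.09 (adjusted p = 5.94e-19).

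Among the Cav1 (L-type) pores, Cacna1c (Cav1.2), which couples calcium entry to transcription, was low in CA1 PNs. It had 64.2, 91.6 and 263.5 CPM there, against 288.0, 346.5 and 368.6 CPM in CA3 PNs and 344.1, 400.4 and 443.8 CPM in DGCs. All CA1 libraries lay below all others, with an LFC of -1.45 ± 0.27 against CA3 (adjusted p = 0.000729) and -1.69 ± 0.27 against DG (adjusted p = 0.000119). Without the CA2-rich libraries the CA3 value was -2.10 ± 0.11. Cacna1d (Cav1.3) was higher in DGCs than in CA1 (LFC -0.85 ± 0.12 for CA1 over DG, adjusted p = 2.57e-07) and CA3 PNs (-0.72 ± 0.11 for CA3 over DG, adjusted p = 2.26e-06). The exons of Cacna1d overlap those of Chdh on the opposite strand over 9.72% of their length, so its counts are uncertain if strand was not used.

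Among the Cav2 pores of the presynaptic terminal, Cacna1a (Cav2.1, P/Q-type) was highest in CA3 PNs. It had 529.1, 624.6 and 670.5 CPM in CA3, 239.5, 295.3 and 453.7 CPM in CA1 PNs and 181.7, 205.6 and 237.3 CPM in DGCs. The 3 ranges did not overlap, with an LFC of 1.56 ± 0.12 for CA3 over DG (adjusted p = 5.31e-14) and -0.96 ± 0.11 for CA1 over CA3 (adjusted p = 1.86e-08). Cacna1b (Cav2.2, N-type) followed the same order, with an LFC of 0.90 ± 0.10 for CA3 over DG and -0.37 ± 0.10 for CA1 over CA3. Cacna1e (Cav2.3, R-type) was instead lowest in CA1 PNs, by -0.27 ± 0.09 against CA3 (adjusted p = 0.0179) and -0.44 ± 0.09 against DG (adjusted p = 7.37e-05).

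The 3 Cav3 (T-type) pores differed in the order of the populations. Cacna1h (Cav3.2) had 286.2, 333.9 and 389.3 CPM in DGCs, 115.9, 128.9 and 150.1 CPM in CA1 PNs and 62.9, 83.0 and 92.3 CPM in CA3 PNs. The ranges were separate, with an LFC of -2.10 ± 0.11 for CA3 over DG (adjusted p = 8.84e-18) and 0.70 ± 0.12 for CA1 over CA3 (adjusted p = 9.74e-06). Cacna1i (Cav3.3) had 6.87, 106.4 and 118.8 CPM in CA1 PNs against 15.3, 23.7 and 50.2 CPM in CA3 PNs and 20.3, 36.8 and 41.0 CPM in DGCs. Apart from the library of mouse 17-21 all CA1 libraries lay above both other populations, and the LFC over CA3 was 1.65 ± 0.42 (adjusted p = 0.00811). That difference was called in Ts ChN (1.15) and Ts ChP (1.20) mice and not in 2N ChP mice (0.87, adjusted p = 0.134), and it was 2.00 ± 0.22 in 2N ChN mice without the CA2-rich libraries. Cacna1g (Cav3.1) had 10.3, 40.1 and 72.5 CPM in CA1 PNs against 6.53, 20.3 and 28.8 CPM in CA3 PNs, which overlap, and its LFC of 1.06 ± 0.41 missed the threshold (adjusted p = 0.079). Without the CA2-rich libraries it was 1.45 ± 0.32 (adjusted p = 0.0018), and it was called with all libraries in the other 3 groups (1.10 to 1.73).

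Of the alpha2delta subunits, Cacna2d3 had 151.3, 178.2 and 464.0 CPM in CA1 PNs, 152.6, 180.5 and 190.6 CPM in CA3 PNs and 32.6, 51.3 and 63.3 CPM in DGCs. Every pyramidal library lay above every DGC library, with LFCs of 2.17 ± 0.27 in CA1 (adjusted p = 8.44e-06) and 1.81 ± 0.27 in CA3 (adjusted p = 3.88e-05). Cacna2d1, a target of gabapentin, had medians of 317.2, 349.5 and 302.2 CPM in CA1 PNs, CA3 PNs and DGCs, and no population difference passed the test. Cacna2d2 had 15.5 CPM or less in all of these libraries, and its LFC of CA1 over DG (1.35 ± 0.47, adjusted p = 0.0251) was 0.89 (adjusted p = 0.202) without the CA2-rich libraries.

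The calcium channel beta subunits split the pyramidal populations. Cacnb3 had 157.2, 186.8 and 232.3 CPM in CA3 PNs against 76.7, 96.9 and 106.5 CPM in CA1 PNs and 64.1, 93.0 and 114.7 CPM in DGCs. CA3 libraries lay above all others, with an LFC of -0.98 ± 0.13 for CA1 over CA3 (adjusted p = 3.2e-07) and 1.01 ± 0.13 for CA3 over DG (adjusted p = 5.54e-08), while the LFC of CA1 over DG was 0.03 ± 0.14. Cacnb1 and Cacnb2 were higher in CA1 than in CA3 PNs, by 0.47 ± 0.12 (adjusted p = 0.00386) and 0.64 ± 0.11 (adjusted p = 2.83e-05). For Cacnb4 the LFC of CA3 over DG was 0.28 ± 0.11 (adjusted p = 0.0435), with 15.7% of its exon length shared with an antisense transcript.

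The CA1 comparisons were repeated without the CA2-rich libraries, which left 4 CA1 libraries of 2N ChN mice. All 12 genes called against CA3 were called again in the same direction, and Cacna1g, Cacnb4, Scn2a, Scn3b and Scn4b were called in addition. Against DG 17 of the 18 were called again in the same direction, all but Cacna2d2, with Cacna1g and Scn3b in addition. The LFC of Cacna2d3 over DGCs was 1.71 ± 0.13 in place of 2.17, that of Cacna1c -2.32 ± 0.11 in place of -1.69 and that of Scn4b 4.40 ± 0.27 in place of 4.17. Against CA3 PNs, Cacna1a had an LFC of -1.17 ± 0.09 in place of -0.96, and Scn2a one of -0.28 ± 0.08 (adjusted p = 0.00458) in place of -0.13 ± 0.09 (adjusted p = 0.394).

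The deposited TPM values, which divide by transcript length, were used to compare genes within a library as the share of each gene in the summed TPM of its subunit family. Shares of 18 genes were compared between the 3 population pairs in 2N ChN mice, and 38 of 54 differences passed an adjusted p of 0.05 (two-sided exact permutation test, whose smallest p with 6 against 6 libraries is 0.00216). With signs flipped within mice, the paired test, the smallest possible p with 6 mice is 0.03125, which 28 of the 54 differences reached. The lowest adjusted p of that exact test was 0.0603, so 0 of the 38 passed. Among the sodium channel pores, Scn8a made up 47.8% ± 2.4 (SD, n = 6) in CA1, 40.2% ± 6.1 in CA3 and 38.4% ± 3.6 in DG libraries. Scn3a made up 20.9% ± 1.0 in DGCs against 5.40% ± 2.0 in CA1 and 4.20% ± 0.45 in CA3 PNs (adjusted p = 0.00531 for each). Scn2a made up 39.1%, 45.3% and 36.0% in CA1 PNs, CA3 PNs and DGCs, and Scn1a 7.52%, 10.2% and 4.53%.

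Among the calcium channel pores Cacna1e held the largest mean share in all 3 populations, at 36.8% in CA1, 36.8% in CA3 and 41.5% in the DG. Cacna1a held 32.9% ± 2.2 in CA3 PNs but 11.9% ± 1.3 in DGCs, below Cacna1h with 16.8% ± 2.2 there (adjusted p = 0.00531 for the Cacna1a difference). Cacna1c held 12.8% in DGCs and Cacna1b 12.2% in CA1 PNs. Of the beta subunits Cacnb1 had the highest mean in CA1 PNs at 39.6% and Cacnb3 in CA3 PNs at 38.3%, while Cacnb2 held 29.1%, 16.1% and 25.1% and Cacnb4 13.1%, 15.0% and 16.8% in CA1 PNs, CA3 PNs and DGCs. Of the sodium channel beta subunits Scn3b held 39.8% ± 4.9 in DGCs. The Scn3b share in CA1 PNs ranged from 4.33% to 39.8%, the lowest in a CA2-rich library. Cacna2d1 was 73.8% ± 6.0 of the alpha2delta family in DGCs and 50.5% ± 4.7 in CA3 PNs, and Cacna2d3 24.1% ± 7.0 and 46.7% ± 4.0.

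In CA1 PNs the order of the alpha2delta subunits depended on the libraries used. Cacna2d3 held 54.3% and Cacna2d1 42.8% over the 6 CA1 libraries, but 45.5% ± 2.2 and 51.5% ± 4.4 over the 4 that were not rich in CA2 markers. Of the 38 called differences in share 36 were called again without the CA2-rich libraries, and Scn8a between CA1 and CA3 was not (8.23 percentage points, adjusted p = 0.0771 in the exact permutation test). Over the same 4 libraries Scn8a held 48.4% ± 2.1, Cacna1e 38.2% ± 1.8, Cacnb1 41.8% ± 6.0 and Cacnb4 8.51% ± 1.7 of their families.

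**Figure D2:**
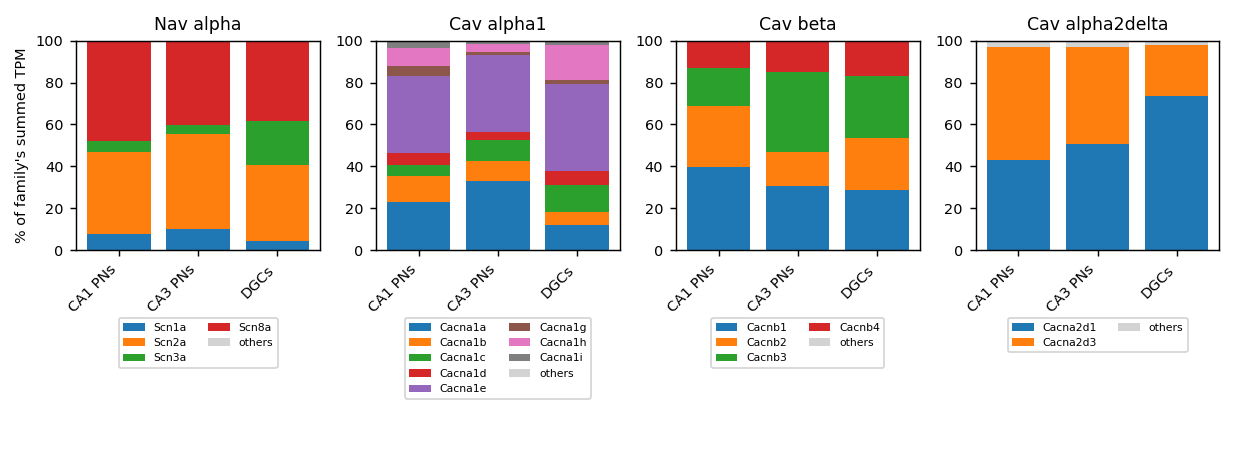
Mean share of each gene in the summed TPM of its subunit family, for the sodium channel pores and the calcium channel families in 2N ChN mice, as stacked percent per neuron population (6 libraries each). Scn3a took 20.9% of the sodium channel pore total in DGCs against 5.40% in CA1 and 4.20% in CA3 PNs.

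Within CA1 the 10 libraries rich in CA2 markers were set beside the other 17 as a description, since this split was made from the data. Ranges did not overlap for 4 of 23 channel genes, where 2.02% of all genes did not overlap. Scn3b had 27.5, 292.2 and 515.0 CPM (lowest, median, highest) in CA2-rich libraries against 537.8, 704.8 and 822.5 CPM in the others, and Cacna2d1 132.4, 233.8 and 263.8 CPM against 285.2, 335.4 and 428.3 CPM. Cacna1c had 112.4, 196.6 and 316.6 CPM against 55.0, 86.2 and 110.9 CPM, and Cacna2d3 194.6, 341.5 and 507.6 CPM against 132.2, 161.3 and 186.9 CPM. The first pair of genes was lower and the second pair higher in the CA2-rich libraries. These libraries were also higher in CA3 markers, and the part of CA2 and of CA3 cells in the differences was not tested. Cacna1i, at 6.87 to 101.6 CPM against 89.1 to 136.9 CPM, and Cacna1g, at 5.25 to 46.9 CPM against 19.4 to 82.4 CPM, had lower medians in the CA2-rich libraries with overlapping ranges.

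**Figure D3:**
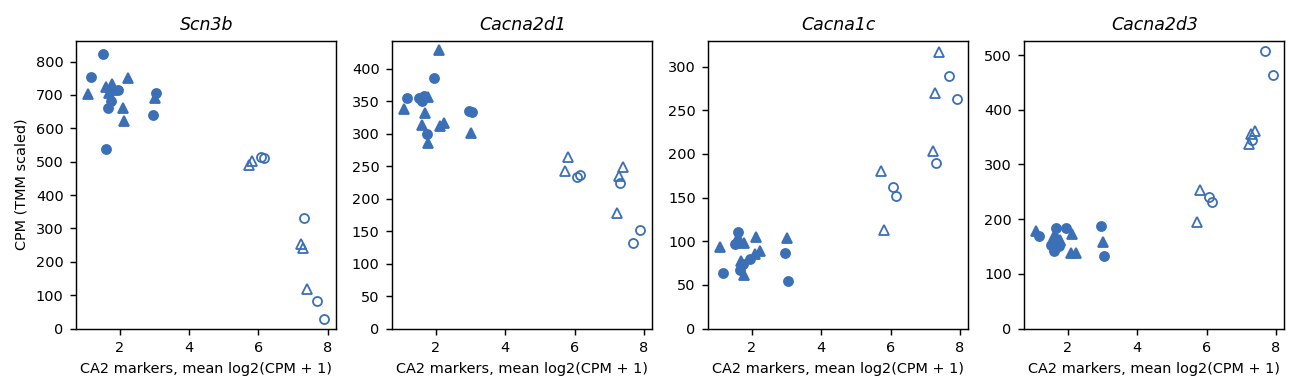
Level of the 4 channel genes whose ranges separated the CA1 libraries, against the mean level of 7 CA2 markers, with 1 point per CA1 library (27), circles for 2N and triangles for Ts. Hollow points are the 10 libraries rich in CA2 markers, in which Scn3b and Cacna2d1 were lower and Cacna1c and Cacna2d3 higher.

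Genotypes were compared within each population and diet to ask which channel genes differ in trisomic neurons. None of the 32 genes lies on chromosome 16, and the only one on chromosome 17, Cacna1h at chr17:25593259-25652764, lies beyond Pde10a (chr17:8744204-9205482), a gene near the end of the triplicated segment. The study's threshold, an unadjusted p under 0.05, was used, but in edgeR models without its covariates (RNA concentration and percentages computed from the reads). By this rule 1 of 23 channel genes was called in ChN CA1 PNs (3.74% of all genes). CA3 PNs had 4 of 23 (9.2%) and DGCs 6 of 24 (8.52%). In ChP mice the calls were 1 of 24 in CA1 PNs (3.58%), with 3 of 25 for CA3 PNs (5.0%) and 4 of 24 for DGCs (7.6%). Without the CA2-rich libraries the CA1 counts were 1 of 23 in ChN mice (Cacna1g), where 7.0% of all genes were called, and 5 of 24 in ChP mice (among them Cacna1g, Cacna1a, Cacna2d1 and Scn1a), where 6.3% were called. For every gene called in these comparisons the Ts and 2N ranges overlapped, and Cacna1g in DGCs was the only call with an adjusted p under 0.05.

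Called in the same direction in both diets, which share no mice, were Cacna1g and Scn1a in CA3 PNs (1.13% of all genes) and Cacna1g, Scn3a and Scn3b in DGCs (1.84%).

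Cacna1g, the pore of Cav3.1 T-type channels, spans chr11:94299217-94365230 on the minus strand. In ChN DGCs it had 6.58, 11.6 and 16.9 CPM in Ts against 11.4, 24.6 and 36.9 CPM in 2N mice, from 10 to 18 and 12 to 47 counts. All 6 Ts libraries lay below the 2N median and 3 lay below every 2N library, with an LFC of -1.09 ± 0.24 (adjusted p = 0.0113). In ChP DGCs it had 5.15, 10.1 and 22.4 CPM in Ts against 12.9, 26.4 and 36.8 CPM in 2N mice, from 4 to 40 and 6 to 42 counts. All 9 Ts libraries lay below the 2N median, with an LFC of -1.06 ± 0.22 (adjusted p = 0.00266). The Ts level was 0.470 and 0.479 times that of 2N in the respective diets. Exact permutation tests of log2(CPM + 1), 1 for each population and diet, gave p = 0.013 in ChN and 0.00227 in ChP DGCs (0.026 and 0.0105 adjusted over the 6 comparisons). These tests were run for Cacna1g alone, on the same libraries as its edgeR calls. Their adjustment does not cover the choice of this gene among the channel genes, so they are not independent support. A non-coding antisense transcript overlaps 3.12% of its exon length.

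In CA3 PNs the gene had 3.13, 7.88 and 17.4 CPM in Ts against 6.53, 20.3 and 28.8 CPM in 2N ChN mice, from 3 to 29 and 4 to 119 counts. Its LFC was -1.07 ± 0.34 (adjusted p = 0.236). All 6 Ts libraries lay below the 2N median. The LFC was -0.87 ± 0.33 (adjusted p = 0.392) without the CA3 library of mouse 15-145 and -0.37 ± 0.48 (adjusted p = 0.948) with it under its own Ts label. In ChP CA3 PNs, where that library plays no part, Cacna1g had 5.68, 12.6 and 15.8 CPM in Ts against 14.2, 18.3 and 37.6 CPM in 2N mice. These came from 6 to 29 and 16 to 32 counts. All 7 Ts libraries lay below the 2N median, with an LFC of -0.65 ± 0.22 (adjusted p = 0.577). The exact permutation p was 0.0671 in ChN and 0.0035 in ChP CA3 PNs (0.101 and 0.0105 adjusted over the same 6 comparisons). Here too the adjustment does not cover the choice of this gene.

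In CA1 PNs of ChN mice the 5 Ts libraries held 19.4, 22.0, 34.4, 39.5 and 42.5 CPM, and the 2N libraries 10.3, 40.1 and 72.5 CPM (lowest, median, highest). The lowest 2N values, 10.3 and 19.7 CPM, came from the CA2-rich libraries. The LFC was -0.42 ± 0.43, which was not called, with all libraries and -0.72 ± 0.24, called by the unadjusted rule (adjusted p = 0.409), without the CA2-rich ones. In ChP mice it was -0.89 ± 0.47 and not called with all libraries, and -0.76 ± 0.30 and called by the unadjusted rule (adjusted p = 0.697) without them. The genotype difference of Cacna1g was not shown to differ between populations, with interactions in ChN mice of 0.67 for CA1 against CA3 and 0.00 for CA3 against DG, neither of them called.

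**Figure D4:**
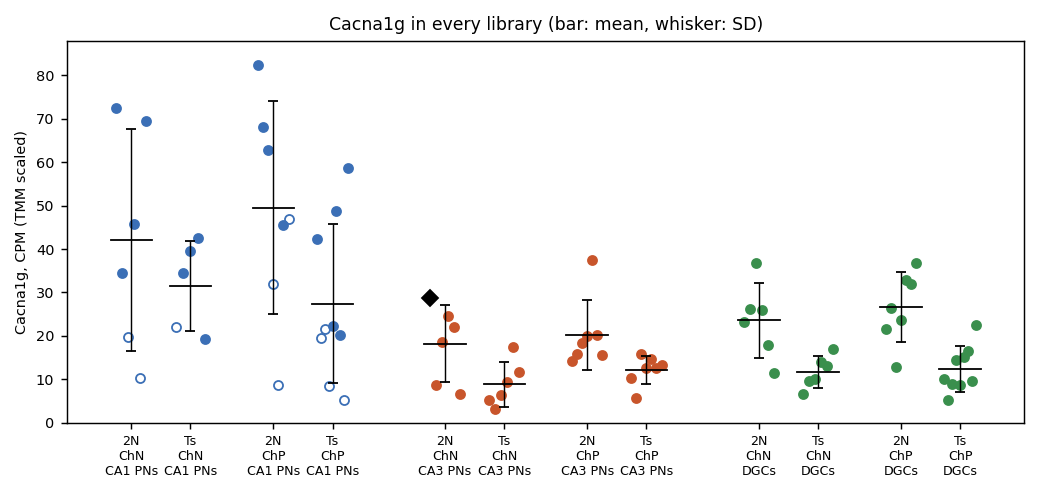
Cacna1g level in each library as CPM, by neuron population, diet and genotype, with 1 point per library, a bar at the mean and whiskers for 1 SD. In DGCs the Ts medians were 11.6 and 10.1 CPM against 24.6 and 26.4 CPM in 2N, hollow points mark CA1 libraries rich in CA2 markers and the black diamond the CA3 library of mouse 15-145.

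The other calls rest on the unadjusted rule, were mostly small and did not pass adjustment over all genes. In CA3 PNs Scn1a had 173.6, 182.8 and 220.5 CPM in Ts against 196.6, 210.2 and 229.1 CPM in 2N ChN mice, an LFC of -0.18 ± 0.08 (adjusted p = 0.435). In ChP mice it had 145.4, 177.3 and 189.0 CPM in Ts against 177.1, 203.6 and 245.8 CPM in 2N, with 7 of 7 Ts libraries below the 2N median and an LFC of -0.30 ± 0.09 (adjusted p = 0.212). Beside the ChN value, inhibitory neuron markers were lower in Ts by 0.79 on the mean log2(CPM + 1) scale (exact permutation p = 0.00866, 0.204 adjusted over 72 marker comparisons), with a summed level of 129.1 to 175.7 CPM in Ts against 146.9 to 412.2 CPM in 2N. In ChP CA3 PNs they differed by -0.04 (exact permutation p = 0.854), and none of the 7 was at 0 throughout a group. Scn2b was lower in Ts in ChP CA3 PNs (LFC -0.18 ± 0.07, adjusted p = 0.691) and had an LFC of -0.12 ± 0.07 in ChN mice (adjusted p = 0.648).

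Cacna1i had 22.6, 52.0 and 56.7 CPM in Ts against 15.3, 23.7 and 50.2 CPM in 2N ChN CA3 PNs. Of the 6 Ts libraries 4 lay above every 2N library, with an LFC of 0.81 ± 0.28 (adjusted p = 0.342). In ChP mice the LFC was -0.39 ± 0.45 and not called. The ChN call of Cacna1i was lost with both diets in 1 model. Cacna1c was higher in Ts ChN CA3 PNs by 0.15 ± 0.07 (adjusted p = 0.468) and its LFC was 0.00 ± 0.07 in ChP mice. The ChN calls of Cacna1c and Scn1a were each lost on leaving out any of 4 of the 12 libraries. With the mouse 15-145 library counted as Ts, 1 of the 4 CA3 ChN calls was left, that of Cacna1i.

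In DGCs Scn3b had 246.7, 300.7 and 325.9 CPM in Ts against 288.8, 320.4 and 365.2 CPM in 2N ChN mice, an LFC of -0.18 ± 0.08 (adjusted p = 0.499). In ChP mice it had 270.5, 323.3 and 356.2 CPM in Ts against 323.3, 358.6 and 420.6 CPM in 2N, with all 9 Ts libraries below the 2N median and an LFC of -0.22 ± 0.07 (adjusted p = 0.172). Scn3a was lower in Ts DGCs by -0.19 ± 0.09 in ChN (adjusted p = 0.531) and -0.17 ± 0.08 in ChP mice (adjusted p = 0.616). The ChN calls of Scn3a and Scn3b were lost on leaving out any of 5 and 4 of the 12 libraries. The ChP call of Scn3a was lost on leaving out any of 8 of the 16 libraries, with LFCs from -0.20 to -0.11, and with DESeq2, while that of Scn3b was kept in all 16. Cacna1h was lower in Ts in ChP DGCs (LFC -0.27 ± 0.08, adjusted p = 0.172), with 229.3, 292.0 and 405.6 CPM against 296.8, 367.8 and 391.4 CPM, and had an LFC of -0.23 ± 0.16 in ChN mice (adjusted p = 0.794). Also called in ChN DGCs were Cacna1e (-0.13 ± 0.06, adjusted p = 0.487), Cacna2d3 (0.33 ± 0.14, adjusted p = 0.467) and Scn9a (1.28 ± 0.59, adjusted p = 0.554), the last with at most 7 counts in a library. Their LFCs in ChP DGCs were -0.05, 0.07 and 0.69, none of them called. The genotype by diet interaction was not called for any channel gene in DGCs.

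Beside the DGC values, inhibitory neuron markers were higher in Ts ChP mice by 0.56 on the mean log2(CPM + 1) scale (exact permutation p = 0.00035, adjusted 0.0252), with a summed level of 228.9 to 327.0 CPM against 169.6 to 255.3 CPM. In ChN DGCs they differed by 0.10 (exact permutation p = 0.584). In Ts ChN DGCs the CA1 markers were lower by -0.42 (exact permutation p = 0.00866, adjusted 0.204), the excitatory neuron markers lower by -0.11 (exact permutation p = 0.0411, adjusted 0.329) and the astrocyte markers higher by 0.31 (exact permutation p = 0.0411, adjusted 0.329). In Ts ChP DGCs the markers of oligodendrocytes (0.49), of their precursors (0.45), of microglia (0.28) and of CA3 (0.27) were higher, with exact permutation p-values of 0.0114, 0.029, 0.0483 and 0.0297 (adjusted 0.204 to 0.347). The part of these cells in the DGC differences, that of Cacna1g included, was not tested.

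**Figure D5:**
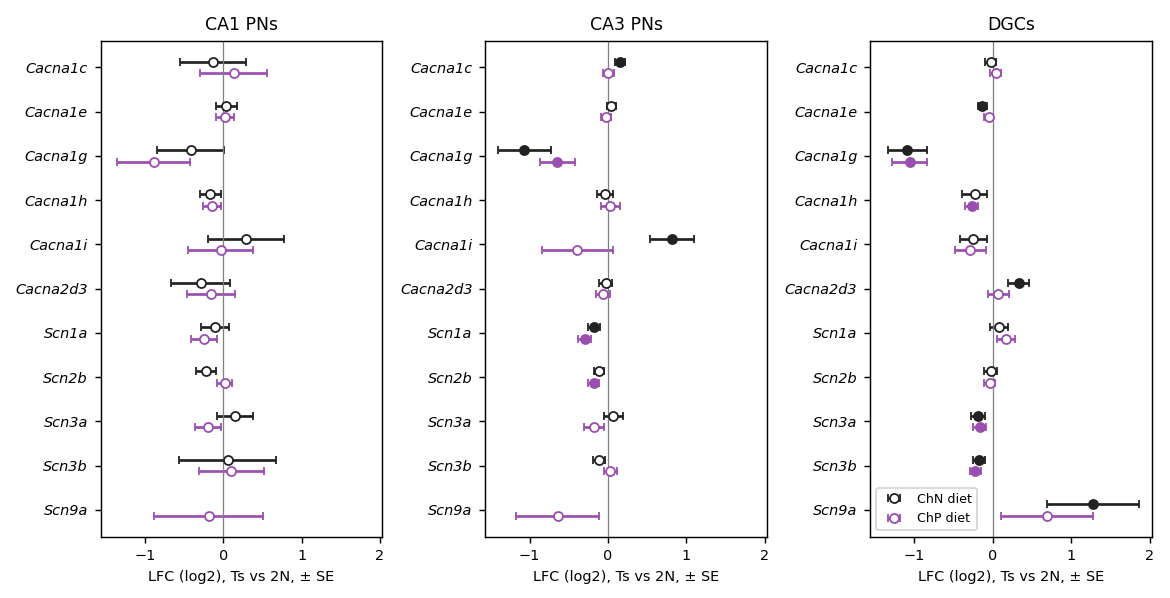
Log2 fold change of Ts over 2N for channel genes called in at least 1 population and diet, by neuron population, with black points for ChN, purple points for ChP and whiskers for 1 SE. Filled points have an unadjusted p under 0.05, and Cacna1g lies near -1 in DGCs in both diets while most other genes lie near 0.

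Diets were compared within each genotype, and the genotype by diet interaction was fitted, to ask whether maternal choline supplementation moved channel genes. By the unadjusted rule 0 channel genes were called in 2N CA1 PNs (3.27% of all genes), 2 in 2N CA3 PNs (4.91%), 0 in 2N DGCs (5.84%), 0 in Ts CA1 PNs (3.05%), 1 in Ts CA3 PNs (4.19%) and 1 in Ts DGCs (3.8%), all by edgeR. DESeq2 and limma-voom called 1 each in 2N DGCs, and limma-voom called 1 in Ts CA1 PNs. No call passed adjustment. Cacna1a was lower in ChP than in ChN 2N CA3 PNs, at 489.5, 565.6 and 605.6 CPM against 529.1, 624.6 and 670.5 CPM (LFC -0.15 ± 0.07, adjusted p = 0.981). The ranges overlap, and without the library of mouse 15-145 no channel gene was called there.

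Cacna2d1 in Ts CA3 PNs had an LFC of -0.16 ± 0.08 for ChP over ChN (adjusted p = 0.999) and Cacnb3 in Ts DGCs one of 0.22 ± 0.10 (adjusted p = 0.999). The first call was lost on leaving out any of 11 of 26 libraries and with DESeq2, the second on leaving out any of 5 of 28. Scn7a in 2N CA3 PNs, with an LFC of 1.82 ± 0.74 (adjusted p = 0.945), had 0 to 9 counts per library. The genotype by diet interaction was called for 0 channel genes in CA1 PNs (3.22% of all genes), 2 in CA3 PNs (4.87%), which were Cacna1i (-1.20 ± 0.57, adjusted p = 0.996) and Scn7a (-2.61 ± 1.01, adjusted p = 0.983), and 0 in DGCs (3.97%), all by edgeR. The Cacna1i interaction was lost on leaving out any of 16 of the 26 libraries. DESeq2 and limma-voom called 0 in CA1 PNs and 0 in DGCs.

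The genotype by population interaction in ChN mice, which tests whether a Ts difference varies between populations, was called for 0 channel genes between CA1 and CA3 (4.25% of all genes), 1 between CA1 and DG (5.51%) and 1 between CA3 and DG (5.18%). The first was Scn9a (-3.20 ± 1.22, adjusted p = 0.839, 0 to 8 counts in these libraries) and the second Cacna1i (1.04 ± 0.51, adjusted p = 0.956). Neither passed adjustment. DESeq2 called 0 and limma-voom 3 channel genes between CA1 and CA3.

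Genes whose products bind the channels or act with them were counted for context. Of 9 sodium channel partners (intracellular FGFs, proteins of the axon initial segment such as Ank3 and Nfasc, Cntn1 and the ubiquitin ligase Nedd4l), 6 differed in each of the population pairs in 2N ChN mice, where 23.3% (CA1 against CA3), 34.3% (CA1 against DG) and 43.7% (CA3 against DG) of all genes did. Of 16 calcium channel partners (release zone proteins such as Rims1, ryanodine and other calcium release receptors, small GTPases such as Rem2 and the anchor Akap5) 12 were tested, and 11, 10 and 9 differed for the same pairs in that order. By genotype in ChN mice the called partners of both lists numbered 0 of 22 for CA1 PNs (3.74% of all genes), 3 of 21 for CA3 PNs (9.2%) and 4 of 20 for DGCs (8.52%). In ChP mice they numbered 2 of 22 (3.58%), 1 of 21 (5.0%) and 4 of 20 (7.6%). Ryr3, a calcium release channel of the endoplasmic reticulum, was lower in Ts DGCs in ChN (LFC -0.25 ± 0.09, adjusted p = 0.405) and ChP mice (-0.33 ± 0.09, adjusted p = 0.105). Ank3, which encodes the anchor of sodium channels at the axon initial segment, was lower in Ts ChN DGCs (-0.19 ± 0.05, adjusted p = 0.116). Cntn1 (0.17 ± 0.06, adjusted p = 0.202) was higher and Cachd1 (-0.37 ± 0.14, adjusted p = 0.378) lower in Ts ChN CA3 PNs. Ryr2, another calcium release channel, was higher in Ts ChN CA3 PNs (0.17 ± 0.05, adjusted p = 0.211) and lower in Ts ChN DGCs (-0.11 ± 0.05, adjusted p = 0.567), and Rims1, a release zone scaffold, was higher in Ts ChN DGCs (0.17 ± 0.08, adjusted p = 0.567).

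In ChP mice Akap5, the postsynaptic kinase anchor, was lower in Ts CA1 PNs (-0.26 ± 0.10, adjusted p = 1.0) and higher in Ts DGCs (0.20 ± 0.10, adjusted p = 0.643). Fgf11 was lower in Ts CA1 PNs (-0.57 ± 0.25, adjusted p = 1.0), and Rims2, a relative of Rims1, higher in Ts CA3 PNs (0.25 ± 0.10, adjusted p = 0.829). Fgf12, an intracellular FGF, was higher (0.34 ± 0.14, adjusted p = 0.51) and Nfasc, an adhesion protein of the axon initial segment, lower (-0.18 ± 0.08, adjusted p = 0.582) in Ts DGCs. All partner calls by genotype rest on the unadjusted rule.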

How the data were processed

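Per the labels, RNA of LCM neurons (1 library per mouse and population) was prepared with a stranded total RNA kit and sequenced. The submitters' processing notes name FastQC 0.11.9, Trimmomatic 0.39, STAR, Picard 2.26.2 and RSEM, and the builds GRCm39 and mm10; whether counting used strand is not given in the sources used here. The authors deposited RSEM expected counts per gene, and the deposited tables also hold TPM (length-corrected, scaled to a common total per library) and a transcript length. The 3 count matrices equalled the per-sample tables.

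Expected counts were rounded. Genes with CPM above 0.1 in at least 10 libraries entered edgeR 4.0.16 (R 4.3.3; TMM, robust quasi-likelihood test, Benjamini-Hochberg adjustment). Populations were compared within each genotype and diet in 1 model per group, genotypes within population and diet, and diets and interactions within population. Population calls used an adjusted p under 0.05, others an unadjusted p under 0.05. DESeq2 1.42.0, limma-voom (limma 3.58.1), other scalings and filters, a mouse block and omission of each library were alternatives, with scripts tested on simulated data. Where populations were compared, each mouse was omitted in place of each library. Groups came from the labels, with mouse 15-145 CA3 as 2N.

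Channel genes and lists were chosen with earlier results of these data known. Named with values were members called by genotype, diet or interaction, members with at least 10% of their family's TPM in a population, and the 2 largest called LFCs in each direction of each population pair; other members named with values were chosen after those were seen. Results by name for 2 members are not reported here; counts over the members include them. Population libraries share mice: over 78 same-mouse pairs and 9109 genes the median correlation of deviations from group means was 0.088, against -0.003 between mice. The labels pair libraries by mouse number.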

Additional observations from a re-analysis of the deposited data

Results flagged for a closer look

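Among 52 groups of 5 to 9 libraries tested for a library far from the others, 4 held one, where chance gives about 1 in 20. These were Cacna1g in CA3 PNs of 2N ChP mice (37.6 CPM in mouse 15-336, the highest), Cacna2d3 in DGCs of 2N ChP mice (90.3 CPM in mouse 15-296, the highest), Cacna2d3 in DGCs of Ts ChN mice (71.0 CPM in mouse 16-490, the highest) and Scn2b in CA3 PNs of 2N ChP mice (397 CPM in mouse 16-90, the lowest).

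By an unadjusted p under 0.05, the genotype effect differed between diets in CA3 PNs for Cacna1i, by an interaction of -1.20 on the log2 scale, and for Scn7a, by -2.61. It differed between populations in ChN mice for Scn9a, by -3.20 between CA1 PNs and DGCs, and for Cacna1i, by 1.04 between CA3 PNs and DGCs. None of the 4 passed adjustment, and Scn7a and Scn9a rest on libraries with few counts. The Cacna1i call between diets was lost on leaving out any of 16 of 26 libraries, with DESeq2 and under the own label of mouse 15-145. Its call between populations was lost on leaving out any of 8 of 12 mice, with limma-voom and under that label. The Scn7a call was lost under that label and the Scn9a call without mouse 17-172 (-2.01).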

How the results depend on the processing

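With the mouse as a replicate block, 12, 17 and 16 channel genes were called for CA1 against CA3, CA1 against DG and CA3 against DG in 2N ChN mice (12, 18 and 16 without the block), 10, 17 and 14 in all 4 groups (9, 18 and 14), and the interaction counts with population stayed at 0, 1 and 1. The block moved no count by over 1.5 times. Counts of the population comparisons stayed within 1.5 times of the main count under every alternative, and no result reversed. Library totals in place of TMM moved the median LFC of all genes by up to -0.22 (CA3 against DG in Ts ChP mice, from -0.04 to -0.26). Leaving out each mouse in turn, with all its libraries, gave 10 to 17 calls for CA1 against CA3, 16 to 19 for CA1 against DG and 14 to 15 for CA3 against DG. Of 38 called shares, 27 to 33 stayed called on leaving out a mouse.

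Genotype counts were small and moved more. For ChN CA1 PNs the count of 1 became 2 with no filter and 2 with the CA2 marker covariate. For ChN CA3 PNs the count of 4 became 1 under the Ts label of mouse 15-145. For ChP CA1 PNs the count of 1 became 2 with DESeq2, 2 with limma-voom, 5 without the CA2-rich libraries and 5 with the CA2 covariate. For the diet effect in 2N mice, the CA1 count of 0 became 2 without the CA2-rich libraries and 1 with the covariate. The CA3 count of 2 became 0 without mouse 15-145, 0 under its own label and 1 with only the 2 groups fitted, and the DG count of 0 became 1 with DESeq2, limma-voom, library totals, the stricter filter, no filter or only 2 groups. In Ts mice the CA1 count of 0 became 1 with limma-voom or only 2 groups, and the CA3 count of 1 became 0 with DESeq2. The genotype by diet count of 2 in CA3 PNs became 1 with DESeq2, 1 with the stricter filter and 0 under the own label of mouse 15-145. For genotype by population, the count of 0 between CA1 and CA3 became 3 with limma-voom and 1 with no filter, without mouse 15-145, under its own label or without the CA2-rich libraries. The count of 1 between CA1 and DG became 2 with DESeq2, 0 with the stricter filter and 3 without the CA2-rich libraries, and the count of 1 between CA3 and DG became 0 with limma-voom, 3 with no filter, 0 under the own label and 4 without the CA2-rich libraries. The CA2 alternatives were chosen after seeing the data, and the cause of these moves was not tested.

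Leaving out 1 library at a time gave genotype counts of 0 to 2 (ChN CA1), 3 to 6 (ChN CA3), 2 to 7 (ChN DG), 1 to 3 (ChP CA1), 3 to 5 (ChP CA3) and 3 to 6 (ChP DG). Diet counts were 0 to 1 (2N CA1), 0 to 6 (2N CA3), 0 to 2 (2N DG), 0 (Ts CA1), 0 to 2 (Ts CA3) and 0 to 2 (Ts DG). Genotype by diet counts were 0 in CA1 and DG and 1 to 4 in CA3. For genotype by population, 1 mouse was left out at a time, with counts of 0 to 2 (CA1 against CA3), 1 to 4 (CA1 against DG) and 0 to 2 (CA3 against DG). The lowest ChN DG count came without mouse 17-154, and 3 calls were left without mouse 16-490, 15-147 or 17-21. The ChP CA3 count of 5 came without mouse 15-336 and the ChP CA1 count of 3 without its CA1 library. The Cacna1g call in CA3 PNs and DGCs was kept in both diets on leaving out any library. Depth limits the rare genes: members below about 1 CPM had 0 to a few counts per library, and their differences were not detectable here.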

Other observations

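The transcript length that RSEM gives per library was examined after the data were seen, for 19 genes in the 3 population pairs and 4 groups. Cacna1e had a longer median length in CA1 PNs (11550 bases) than in CA3 PNs (9317 bases) or DGCs (9578 bases) of 2N ChN mice, with ranges that did not overlap. The length was longer in CA1 in all 4 groups. Exact permutation p-values were 0.000525 to 0.00466 and none passed an adjusted p of 0.05 over 228 comparisons. With 1 length per gene, the difference in the Cacna1e share of the pore family between CA1 PNs and DGCs was -2.15 percentage points (adjusted p = 0.384), against -4.69 with the length of each library.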
